A study of Mus musculus with 8 samples.

Results

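The collagen chain genes were taken as every gene symbol in the count files of the form *Col*, a number, the letter a and a number, which gave 44 of the 24052 listed symbols. RNA-Seq was performed on the mTEC 3.10 line, a medullary thymic epithelial cell line from C57BL/6 mice, and on its clone E6, made with Crispr-Cas9 mutations in *Aire*. Each cell type was sequenced without thymocytes (before adhesion) and after 12 h of co-culture at 50 C57BL/6 thymocytes per mTEC (after adhesion). Each of the 4 conditions had 2 libraries. The labels give WT as wildtype, and E6 as Aire KO in one field and as Aire +/- in another. All cells were at passage 2, and the stated culture time was 24 h for replicate 1 of E6 before and after adhesion and replicate 2 of WT after adhesion, and 12 h for the other libraries. E6 is 1 clone, so the *Aire* mutations cannot be told apart from other differences between this clone and the line. After co-culture, attached thymocytes were washed off and the mTECs were collected by trypsin. No source says that the libraries of a condition came from separate cultures, and the p-values measure only the spread between these libraries.

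Collagens are extracellular proteins whose chains wind around each other into a triple helix, and the chain genes are named by collagen type and chain. Fibrillar collagens form the fibrils of connective tissue, and FACIT collagens sit on fibril surfaces. Type IV collagen forms the sheet-like network of basement membranes on which epithelial cells rest. Type VII collagen forms the anchoring fibrils that tie an epithelial basement membrane to the matrix below it. In the thymus, collagens lie in the capsule, the septa, the vessel walls and the basement membranes of the epithelium.

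The reads counted on genes numbered 13506610 to 20145154 in a library, and 3 reads, the limit that a count of 0 allows, equalled 0.149 to 0.222 CPM (counts scaled by the library total on genes). These limits and the intervals below cover counting error only. Replicate 1 of WT after adhesion stood apart: 66.7% of its alignments fell on genes, against 75.7% to 78.8% elsewhere. Relative to the mean library, log2 counts had a slope of -0.47 per 10% of GC content in it, against -0.02 to 0.14 elsewhere. The tested collagen transcripts had a median GC content of 57.7%, against 50.0% for the 11605 tested genes with a known value. In that library 15 of the 17 tested collagen chains were below replicate 2, with a median difference in log2 CPM of -0.58 against -0.02 over all tested genes. WT values are therefore also given without it. *Aire* itself had 0 counts in 6 libraries and 3 counts in replicate 2 of WT and of E6 after adhesion, so its mRNA did not check the labels at this depth.

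The cells carried epithelial transcripts in every library. All 8 epithelial markers were present, with a sum of 4096 to 6047 CPM in WT and 5686 to 6014 CPM in E6. *Krt8* and *Krt18*, keratins of simple epithelium, were among the highest, while *Krt5*, a basal keratin often used for mTECs, had 3 to 21 counts per library. *Krt14*, another basal keratin of this list, had 3767 to 11085 counts per library. The 12 markers of mesenchymal cells, the usual makers of fibrillar collagen, summed to at most 1.04 CPM, *Lum* and *Tcf21* were at 0 in all libraries, and 8 of the 12 never exceeded 3 counts. The 6 endothelial markers summed to at most 0.298 CPM except in E6 after adhesion (1.60 and 2.14 CPM), where *Pecam1* had 31 and 22 counts. The other 5 endothelial markers never exceeded 3 counts in any library. Thymocyte RNA differed between the cell types after adhesion. The 15 thymocyte markers used (of a list of 25) summed to at most 0.966 CPM before adhesion, to 12.8 and 17.3 CPM in WT after adhesion, and to 93.2 and 117 CPM in E6 after adhesion. All 6 macrophage or dendritic cell markers had reads, and their sum was 47.4 to 80.3 CPM in WT and 58.0 to 70.1 CPM in E6, most of it from *Csf1r*. Within that list, *Lyz2*, a lysozyme of myeloid cells, had 0 counts in every library before adhesion, 12 and 24 in WT after adhesion and 109 and 88 in E6 after adhesion. *Emr1*, which codes for F4/80, went from 0 and 0 to 4 and 5 counts in WT and from 0 and 0 to 37 and 21 counts in E6. *Itgax*, which codes for CD11c, had at most 4 counts elsewhere and 16 and 11 in E6 after adhesion. The other markers of this list had reads in every library before adhesion and no comparable rise in E6. By condition means, *Csf1r* went from 62.5 to 47.3 CPM in WT and from 47.6 to 41.6 CPM in E6. *Cd68* went from 1.85 to 5.72 CPM in WT and from 2.53 to 4.91 CPM in E6. *Cd14* fell in the WT mean and went from 12.8 to 14.2 CPM in E6. The part of these cells in the collagen values was not tested.

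Of the 44 collagen chain genes, 34 had at least 1 read in some library and 10 had none: *Col24a1*, *Col9a1*, *Col9a2*, *Col6a2*, *Col6a4*, *Col6a5*, *Col10a1*, *Col13a1*, *Col25a1* and *Col26a1*. A gene could be tested if it had enough reads in at least the number of libraries of 1 condition (edgeR's filterByExpr), and 17 chains passed. By class, 7 of 11 fibrillar, 7 of 8 basement membrane, 1 of 9 FACIT, 1 of 1 anchoring fibril and 1 of 3 short-chain network chains passed. None of the 6 beaded filament (type VI), 4 transmembrane and 2 other chains did. *Col2a1* passed only through WT libraries and *Col27a1* only through E6 after adhesion, so counts over the chains are also given without them.

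Basement membrane and anchoring fibril chains led the order of levels. Per length of transcript, the mean over the 8 libraries was highest for *Col4a1* at 111 RPKM (CPM per kilobase of the longest protein-coding transcript). *Col4a2* followed at 79.0, *Col7a1* at 63.4, *Col4a3* at 62.3, *Col18a1* at 52.8 and *Col4a4* at 29.1 RPKM. *Col8a1* at 22.1, *Col12a1* at 19.1, *Col4a5* at 12.2 and *Col5a1* at 8.45 RPKM completed the first 10 chains. The next was *Col1a1*, a chain of the main fibrillar collagen, at 0.242 RPKM. The libraries of *Col7a1*, *Col4a3* and *Col18a1* overlapped in this order, which was not the same in both cell types. *Col7a1* had 42.7 ± 12.1 RPKM (SD, n = 4) in WT and 84.2 ± 4.86 RPKM (SD, n = 4) in E6, whereas *Col18a1* had 65.0 ± 18.1 RPKM in WT and 40.7 ± 2.72 RPKM in E6. *Col18a1* was thus above *Col7a1* in the WT mean and below it in the E6 mean.

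**Figure D1:**
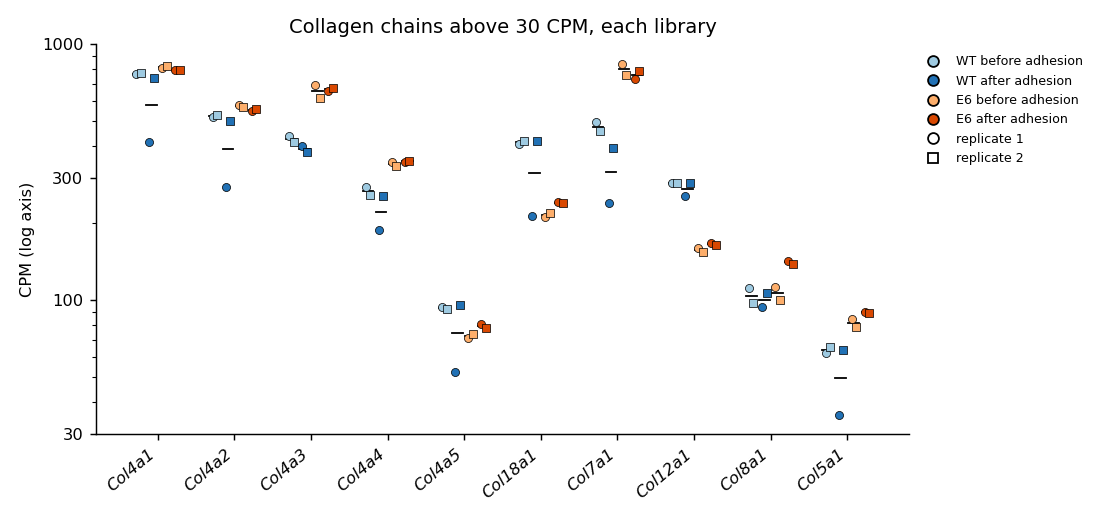
CPM of the 10 best-counted collagen chains on a log axis, 1 point per library and a bar at the mean of the 2 libraries of a condition. *Col7a1*, *Col4a3* and *Col4a4* are higher and *Col12a1* lower in all E6 libraries, and the low dark blue circles are replicate 1 of WT after adhesion (414 CPM for *Col4a1*, against 737 CPM in replicate 2).

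Basement membrane chains made up 72.5 ± 1.1% (SD, n = 4) of collagen reads in WT and 69.8 ± 0.62% in E6. The anchoring fibril chain *Col7a1* took 12.7 ± 1.4% in WT and 20.3 ± 0.89% in E6. The FACIT chains took 9.35 ± 1.6% in WT and 4.23 ± 0.14% in E6. The libraries of WT and E6 did not overlap in either of these classes, and without replicate 1 of WT after adhesion the WT shares were 13.3 ± 1.1% and 8.54 ± 0.28% (SD, n = 3). Short-chain network collagens took 3.42 ± 0.62% and 3.23 ± 0.51%, and fibrillar collagens 2.03 ± 0.15% and 2.39 ± 0.15%. The basement membrane share (71.0% to 73.6% in WT, 69.3% to 70.6% in E6) and the fibrillar share (1.83% to 2.18% and 2.20% to 2.55%) also did not overlap, while the short-chain share did. The summed collagen level was 3066 ± 601 CPM in WT and 3828 ± 82.8 CPM in E6, and the WT value was 3363 ± 112 CPM (SD, n = 3) without the library that stood apart. These shares were not tested, and in bulk samples fewer cells that express a gene cannot be told apart from less RNA per cell.

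**Figure D2:**
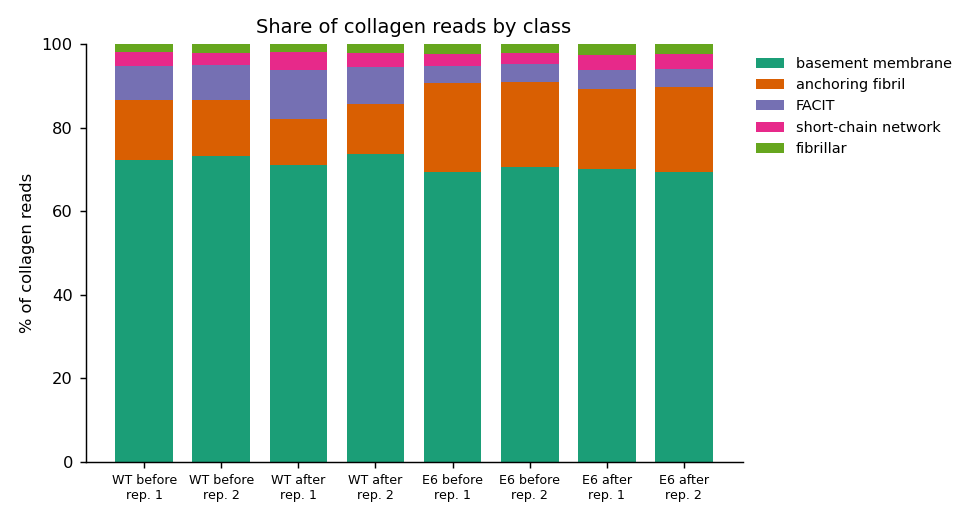
Stacked bars of the percentage of collagen reads in each class, 1 bar per library; classes under 0.1% are not drawn. The anchoring fibril part is 11.0% to 14.3% in the WT libraries and 19.3% to 21.4% in the E6 libraries, and the FACIT part is 8.30% to 11.8% in WT and 4.10% to 4.42% in E6.

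The first question was how the E6 clone differed from WT when the conditions before and after adhesion were averaged. DE chains had a Benjamini-Hochberg FDR under 0.05 over all 11672 tested genes in edgeR's quasi-likelihood test and an FC of at least 1.5. By these limits 5 of the 17 tested chains were DE, against a background of 11.3% of all tested genes. The 2 higher in E6 were *Col4a3* and *Col7a1* (background 5.22%), and the 3 lower were *Col12a1*, *Col18a1* and *Col2a1* (6.13%). *Col4a4* and *Col5a1* also had an FDR under the limit but an FC below 1.5, and 20.9% of all tested genes had such an FDR at any FC. *Col2a1*, which passed the filter only where it was high, had to differ, and among the 15 chains left without it and *Col27a1*, 2 were higher and 2 lower. The median log2 FC was 0.30 over the 17 chains and -0.01 over all tested genes. The libraries of WT and E6 did not overlap in CPM for 9 of the 17 chains (7 higher and 2 lower in E6), while 31.3% of all tested genes did not overlap. Of the 15 chains, 8 did not overlap (7 higher and 1 lower). Without replicate 1 of WT after adhesion, *Col4a5* and *Col18a1* also did not overlap, both lower in E6.

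Before adhesion 2 of the 17 chains were DE (*Col4a3* higher, *Col12a1* lower), against 5.01% of all tested genes (2.45% higher, 2.56% lower). After adhesion 5 were DE (*Col4a3*, *Col4a4* and *Col7a1* higher, *Col12a1* and *Col2a1* lower), against 8.91% (4.85% higher, 4.06% lower). Over the 15 chains the counts were 2 before and 4 after adhesion. By class, the averaged comparison had 1 higher and 1 lower of the 7 tested basement membrane chains, 0 higher and 1 lower of the 7 fibrillar chains, the FACIT chain lower and the anchoring fibril chain higher. The short-chain network chain was not DE. Leaving out a library moved these counts and the share of all tested genes that were DE, with 18 or 19 chains tested in each such fit. The averaged count was 3 without replicate 2 of WT before adhesion (5.98% of all tested genes DE) or without replicate 2 of E6 after adhesion (5.82%), and 10 of 19 without replicate 2 of WT after adhesion (21.4%), which leaves the library that stood apart as the only one of its condition. The count before adhesion was 0 without any 1 of the 4 libraries compared (0.310% to 0.578% of all tested genes), 1 without either library of E6 after adhesion (1.45% and 1.47%) and 5 without either library of WT after adhesion (12.7% each). The count after adhesion was 0 without either library of E6 after adhesion (0.361% and 0.227%), 2 without any 1 of the 4 libraries before adhesion (2.84% to 3.82%), 7 of 18 without replicate 1 of WT after adhesion (15.6%) and 12 of 19 without replicate 2 of WT after adhesion (37.7%).

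**Figure D3:**
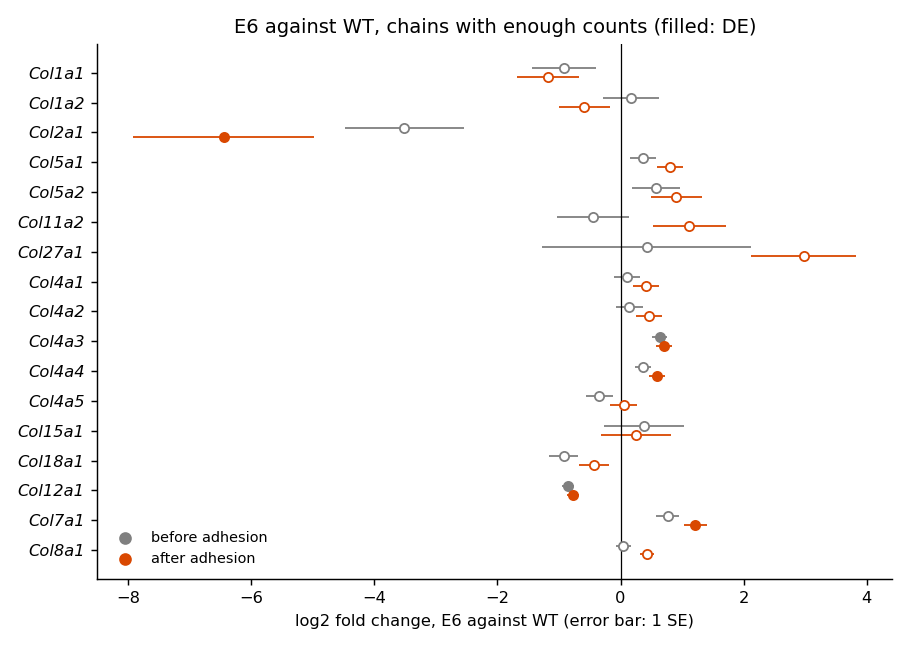
Log2 fold change of E6 against WT for the 17 tested chains, before (grey) and after adhesion (orange), with error bars of 1 SE; filled points are DE. *Col12a1* lies at -0.85 and -0.77 and *Col4a3* at 0.63 and 0.71, filled in both conditions, and the wide bars belong to chains with few reads, such as *Col2a1* and *Col27a1*.

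The common type IV collagen network is built from the chains of *Col4a1* and *Col4a2*, and another from those of *Col4a3*, *Col4a4* and *Col4a5*. The latter network is best known from the basement membrane of the kidney glomerulus. *Col4a3* (chromosome 1, 82586921 to 82722059, plus strand, GRCm38) was higher in E6. It had 436 and 414 CPM in WT before adhesion, 400 and 378 CPM in WT after adhesion, 693 and 613 CPM in E6 before adhesion and 657 and 673 CPM in E6 after adhesion. Every E6 library lay above every WT library, also with replicate 1 of WT after adhesion, which was close to its partner for this chain. The mean was 407 ± 24.5 CPM (SD, n = 4) in WT and 659 ± 33.8 CPM in E6. The averaged log2 FC was 0.67 (SE 0.09, edgeR FDR 0.00338), a 1.59-fold difference, with 0.63 (FDR 0.0342) before and 0.71 (FDR 0.0194) after adhesion. The averaged call held without any 1 library (log2 FC 0.63 to 0.74). The calls before and after adhesion were each lost without any 1 of the 6 libraries other than those of WT after adhesion, at log2 FCs of 0.55 to 0.71 and 0.70 to 0.72. The call before adhesion was also lost with the replicate numbers as a block. The call after adhesion was also lost in the fit of the 4 libraries after adhesion alone.

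*Col4a4* (chromosome 1, 82448423 to 82586849, minus strand) had 277 and 257 CPM in WT before adhesion, 188 and 254 CPM in WT after adhesion, 345 and 334 CPM in E6 before adhesion and 345 and 351 CPM in E6 after adhesion. All E6 libraries were above all WT libraries, by less than for *Col4a3*. The log2 FC was 0.48 (SE 0.09, edgeR FDR 0.0127) averaged, under the FC limit, 0.37 (FDR 0.160) before and 0.60 (FDR 0.0344) after adhesion. The call after adhesion was at the edge of the FC limit, and without replicate 1 of WT after adhesion the log2 FC was 0.48 and under it. This call was also lost without any 1 of the other libraries except replicate 2 of WT after adhesion (log2 FC 0.59 to 0.61), with each library corrected for GC content (0.56) and in the fit of the 4 libraries after adhesion alone (0.60). Taking the replicate numbers as a block ended it too. *Col4a5* (chromosome X) had 83.4 ± 20.9 CPM in WT and 75.8 ± 4.32 CPM in E6, and its log2 FC of -0.15 did not pass (edgeR FDR 0.539). Without the library that stood apart, WT had 93.8 ± 2.00 CPM (SD, n = 3), from 91.8 to 95.8 CPM, all above the E6 libraries at 71.1 to 80.7 CPM.

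*Col4a3* and *Col4a4* are neighbours that run in opposite directions, and their start sites in GENCODE vM21 leave 71 bases between them (chr1:82586850-82586920, GRCm38.p6). The bases were read from the RefSeq promoter entry of *Col4a4*. This stretch is shown because both genes lie on either side of it and both were higher in E6 after adhesion. It reads, on the plus strand, from the side of *Col4a4* to that of *Col4a3*:
*Col4a4* to *Col4a3*: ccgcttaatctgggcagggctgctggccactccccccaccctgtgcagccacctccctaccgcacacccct
Its GC content was 69.0%, and it held none of 5 motifs searched on both strands (GGGCGG, the Sp1 box; CCAAT, the CCAAT box; TATAAA, the TATA box; TGANTCA, the AP-1 site; CAGACA, the SMAD element), so it carries no capitals.

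The chains of the common network did not pass. *Col4a1* (chromosome 8, 11198423 to 11312826, minus strand) had 763 and 767 CPM in WT before adhesion, 414 and 737 CPM in WT after adhesion, 808 and 820 CPM in E6 before adhesion and 794 and 789 CPM in E6 after adhesion. The E6 libraries lay narrowly above the WT libraries, with the WT library that stood apart far below the rest. Its averaged log2 FC was 0.26 (SE 0.15, edgeR FDR 0.257), and 0.12 without that library. *Col4a2*, whose start overlaps that of *Col4a1* by 22 bases on the opposite strand, had 457 ± 121 CPM in WT and 563 ± 13.7 CPM in E6 and a log2 FC of 0.30 (FDR 0.205). Per length, the ratio of *Col4a1* to *Col4a2* reads was 1.36 to 1.46 in all 8 libraries, and it hardly moved in the library that stood apart.

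The levels of the chains of the other network stood in different ratios in WT and E6. Per length, *Col4a3* had 3.01 to 5.87 times the reads of *Col4a5* in WT and 6.23 to 7.44 times in E6. *Col4a4* had 1.72 to 2.33 times the reads of *Col4a5* in WT and 2.76 to 3.14 times in E6. Neither ratio overlapped between the cell types, and the highest WT value of both came from the library that stood apart. Without it the WT means were 3.34 ± 0.29 and 1.81 ± 0.095 (SD, n = 3). *Col4a3* had 1.76 to 2.51 times the reads of *Col4a4* in WT and 2.17 to 2.37 times in E6, and these ranges overlapped, whereas the WT range was 1.76 to 1.91 and did not overlap without that library. These ratios were not tested.

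**Figure D4:**
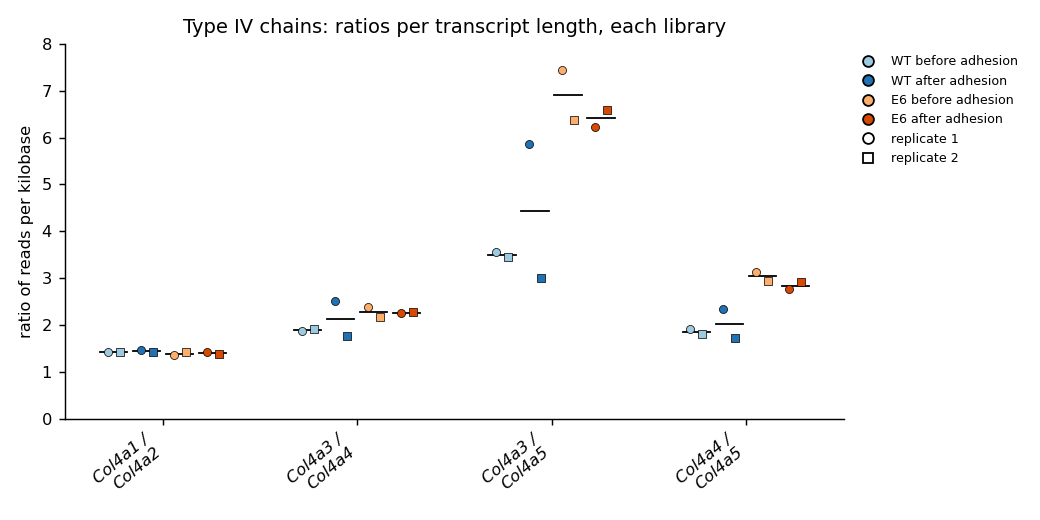
Ratios of reads per kilobase between type IV chains, 1 point per library and a bar at the mean of the 2 libraries of a condition. The ratio of *Col4a1* to *Col4a2* stays between 1.36 and 1.46, while the ratio of *Col4a3* to *Col4a5* is at most 5.87 in WT and at least 6.23 in E6.

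The other basement membrane collagens are type XVIII, whose C-terminal fragment is endostatin, and type XV, its close relative. *Col18a1* (chromosome 10, 77052178 to 77166548, minus strand) had 406 and 420 CPM in WT before adhesion, 212 and 416 CPM in WT after adhesion, 210 and 220 CPM in E6 before adhesion and 241 and 239 CPM in E6 after adhesion. All E6 libraries were near the level of replicate 1 of WT after adhesion and far below the other 3 WT libraries. The averaged log2 FC was -0.68 (SE 0.17, edgeR FDR 0.0306), and the FDR was over the limit before (log2 FC -0.93, FDR 0.0732) and after adhesion (-0.43, FDR 0.272). Without the library that stood apart, the averaged log2 FC was -0.84 and WT had 414 ± 6.89 CPM (SD, n = 3). Leaving out any other library, WT or E6, ended the call, with log2 FCs of -0.70 to -0.42.

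*Col18a1* lies 0.863 Mb from *Aire*. In this averaged comparison the median log2 FC was -0.37 over the 460 well-counted genes of chromosome 10 and -0.27 over the 120 of them within 5 Mb of *Aire*. The part of this shift in the *Col18a1* value was not tested. Chromosomes 1 and 9, which carry *Col4a3*, *Col4a4*, *Col7a1* and *Col12a1*, had medians of -0.01 each. *Col15a1* had 6 to 26 counts per library and a log2 FC of 0.31 that did not pass.

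*Col7a1*, the anchoring fibril chain (chromosome 9, 108953586 to 108984875, plus strand), was higher in E6. It had 494 and 455 CPM in WT before adhesion, 239 and 392 CPM in WT after adhesion, 837 and 757 CPM in E6 before adhesion and 733 and 787 CPM in E6 after adhesion. The lowest E6 library was far above the highest WT library. The mean was 395 ± 112 CPM (SD, n = 4) in WT and 778 ± 44.9 CPM in E6. The averaged log2 FC was 0.99 (SE 0.14, edgeR FDR 0.00376), a 1.99-fold difference, and 0.88 without replicate 1 of WT after adhesion. It was 0.76 (FDR 0.0655, not passing) before and 1.22 (FDR 0.0137) after adhesion, and the difference between these effects did not pass (0.45, SE 0.27, FDR 0.988). The averaged call held without any 1 library (log2 FC 0.88 to 1.16), and the call after adhesion was lost without replicate 1 or replicate 2 of E6 after adhesion (1.27 and 1.17). The call after adhesion was also lost in the fit of the 4 libraries after adhesion alone.

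The 250 bases before the RefSeq start of *Col7a1* (chr9:108953336-108953585, plus strand, GRCm38.p6) are shown because this chain had the largest difference among the well-counted chains. Capitals mark the motifs found, in order a CCAAT box on the minus strand, a SMAD element on the minus strand and an Sp1 box on the plus strand:
*Col7a1*: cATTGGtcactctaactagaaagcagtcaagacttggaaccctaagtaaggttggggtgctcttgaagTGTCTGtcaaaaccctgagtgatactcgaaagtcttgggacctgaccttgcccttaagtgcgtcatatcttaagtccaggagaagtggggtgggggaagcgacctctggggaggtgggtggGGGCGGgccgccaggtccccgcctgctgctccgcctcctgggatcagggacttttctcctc
Of 32851 RefSeq promoters of 250 bases before and 50 after a start, 37.4% held a CCAAT box, 35.7% an Sp1 box, 21.0% a SMAD element, 13.6% a TATA box and 7.81% an AP-1 site. The motifs in *Col7a1* are matches of letters that many promoters share, not shown sites of binding. Of the 17 tested chains, 12 had a promoter entry in RefSeq, and *Col4a3*, *Col12a1* and *Col2a1* were among those without.

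*Col12a1*, a FACIT chain found along fibrils and in tissues under tension (chromosome 9, 79598991 to 79718831, minus strand), was lower in E6. It had 286 and 286 CPM in WT before adhesion, 256 and 286 CPM in WT after adhesion, 160 and 154 CPM in E6 before adhesion and 167 and 163 CPM in E6 after adhesion. The cell types were far apart, and the libraries of each were close together. The mean was 278 ± 15.2 CPM (SD, n = 4) in WT and 161 ± 5.45 CPM in E6. The averaged log2 FC was -0.81 (SE 0.07, edgeR FDR 0.000759), a 1.76-fold lower level, with -0.85 (FDR 0.00683) before and -0.77 (FDR 0.00766) after adhesion. Its averaged FDR was the smallest of the 17 chains, and that call held without any 1 library (log2 FC -0.82 to -0.79). The call before adhesion was lost without any 1 of the 4 libraries before adhesion (-0.87 to -0.83), and the call after adhesion without replicate 1 or replicate 2 of E6 after adhesion (-0.79 and -0.75). The call after adhesion was also lost in the fit of the 4 libraries after adhesion alone.

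Of the fibrillar chains, only *Col5a1* exceeded 10 CPM in any library. Type V collagen is known to take part in starting fibrils and setting their width. *Col5a1* (chromosome 2, 27886425 to 28039514, plus strand) had 62.0 and 65.7 CPM in WT before adhesion, 35.4 and 63.5 CPM in WT after adhesion, 84.0 and 78.3 CPM in E6 before adhesion and 89.6 and 89.3 CPM in E6 after adhesion. All E6 libraries were above all WT libraries. The averaged log2 FC was 0.58 (SE 0.15, edgeR FDR 0.0315), just under the FC limit, and 0.44 without the library that stood apart. It passed the FC limit without replicate 2 of WT after adhesion (0.80), with RLE size factors (0.59), with no filter on low counts (0.60), with the replicate block (0.60) and in DESeq2 (0.59). Its partner *Col5a2* had 1.04 ± 0.395 CPM in WT and 1.75 ± 0.375 CPM in E6, and its log2 FC of 0.74 did not pass (FDR 0.111).

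The chain of cartilage collagen, *Col2a1* (chromosome 15, 97975602 to 98004695, minus strand), was near the limit of counting. It had 9 and 14 counts in WT before adhesion, 8 and 15 in WT after adhesion, 2 and 0 in E6 before adhesion and 0 and 0 in E6 after adhesion. Every WT library held more reads than any E6 library. Because the filter admitted it only through WT libraries, a difference was built into its selection, and its averaged FDR of 0.0121 and its FDR of 0.0447 after adhesion (edgeR) are given as a description. Its fitted fold change depends on how counts of 0 are treated. Over the 4 libraries of each cell type, the 46 WT counts and 2 E6 counts gave a ratio of 23.3 (95% exact interval 6.10 to 198). After adhesion it was at least 3.47-fold lower in E6, taking the limit of 3 counts in each E6 library. The averaged call was lost without replicate 2 of WT before adhesion and without replicate 2 of E6 after adhesion, with the log2 FC at -4.74 and -4.97. The call after adhesion was lost without any 1 of the 6 libraries other than those of WT after adhesion (-6.48 to -6.41). It was also lost with no filter on low counts and with the replicate numbers as a block.

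*Col1a1* and *Col1a2*, the chains of type I collagen, were scarce. The level of *Col1a1* was 1.91 ± 0.466 CPM in WT and 0.954 ± 0.399 CPM in E6 (SD, n = 4 each), a log2 FC of -1.05 that did not pass (edgeR FDR 0.0816), although it was -1.19 and passed (FDR 0.0481) with each library corrected for GC content. *Col1a2* had 1.04 ± 0.341 CPM in WT and 0.894 ± 0.278 CPM in E6. *Col11a2* had 1.20 ± 0.737 CPM in WT and 1.52 ± 0.446 CPM in E6. Neither of the latter 2 passed, and both cell types overlapped in both chains.

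*Col8a1*, a short-chain collagen of the endothelial and corneal membranes (chromosome 16, 57624258 to 57754737, minus strand), had 111 and 97.1 CPM in WT before adhesion, 93.5 and 106 CPM in WT after adhesion, 113 and 100 CPM in E6 before adhesion and 143 and 139 CPM in E6 after adhesion. Only E6 after adhesion lay outside the range of the other libraries. Its averaged log2 FC was 0.24 (SE 0.08, edgeR FDR 0.0847), with 0.05 (FDR 0.883) before and 0.43 (FDR 0.0609) after adhesion.

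The second question was whether thymocyte adhesion altered the collagen chains. By edgeR's quasi-likelihood test, 0 of the 17 chains were DE with adhesion averaged over the cell types, in WT or in E6, while 1.89%, 0% and 2% of all tested genes were. At an unadjusted p under 0.05 there were 2, 1 and 2 chains, against 9.89%, 7.48% and 6.97% of all tested genes, and DESeq2 also called 0 in each. The averaged count was 1 without replicate 1 and 2 without replicate 2 of WT after adhesion, when 4.23% and 11.2% of all tested genes were DE. The count in WT was 8 of 19 without replicate 2 after adhesion, beside 29.8% of all tested genes, when the library that stood apart stood alone for its condition. The median log2 FC of the chains with adhesion was -0.25 in WT and 0.06 in E6, against 0.02 and -0.02 over all tested genes. The difference between the adhesion effects passed for 0 of the 17 chains and for 0% of all tested genes, with 0 chains at an unadjusted p under 0.05 (2.54% of all tested genes), 0 in DESeq2, and 7 of 19 without replicate 2 of WT after adhesion (25.6% of all tested genes).

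*Col27a1*, a fibrillar chain best known from cartilage (chromosome 4, 63214004 to 63334991, plus strand), had the largest adhesion value in E6. It had 1 and 1 counts in WT before adhesion, 0 and 6 in WT after adhesion, 3 and 0 in E6 before adhesion and 23 and 23 in E6 after adhesion. Both E6 libraries after adhesion lay above all the others. Because the filter admitted *Col27a1* only through E6 after adhesion, a difference was built into its selection. Its ratio, its fitted log2 FC and the calls below are given as a description. In E6, the 46 counts after and 3 before adhesion gave a ratio of 15.7 (95% exact interval 5.05 to 78.9). The fitted log2 FC was 3.80 (SE 0.97) with an edgeR FDR of 0.168, which did not pass. The chain was DE without replicate 1 of WT after adhesion (log2 FC 3.84), without replicate 2 of that condition (3.82), and in a fit of the 4 E6 libraries alone (3.84). The libraries with the 23 counts were those with the highest thymocyte and endothelial marker levels. They also had the most *Lyz2*, *Emr1* and *Itgax* reads. By condition means in CPM, *Cd14* was also highest in E6 after adhesion (14.2, against 12.8 in E6 before adhesion). *Csf1r* and *Cd68* were not highest there. The part of thymocytes, endothelial cells and myeloid cells in the *Col27a1* value was not tested.

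In E6, *Col8a1* had a log2 FC of 0.35 with adhesion (unadjusted p = 0.0190 and FDR 0.409 in edgeR's quasi-likelihood test). In WT, *Col7a1* had one of -0.57 (unadjusted p = 0.0194, FDR 0.620), which was -0.31 without replicate 1 after adhesion and -0.90 and DE without replicate 2. Of the strongly expressed chains, 6 had small log2 FCs with adhesion in E6, of -0.09 for *Col4a1*, -0.02 for *Col4a3* and *Col4a4*, 0.03 for *Col12a1*, -0.12 for *Col7a1* and 0.11 for *Col18a1*, each with an SE between 0.10 and 0.24.

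The 27 chains that were not tested had at most 20 counts in any library. Some of them were picked for description after their values were seen. *Col6a3*, a chain of the beaded filaments of type VI collagen, had 7 and 7 counts in WT before adhesion, 20 and 10 in WT after adhesion, 2 and 3 in E6 before adhesion and 2 and 5 in E6 after adhesion. Its 44 WT and 12 E6 counts gave a ratio of 3.72 (95% exact interval 1.93 to 7.73). *Col16a1*, a FACIT chain, had 27 counts in WT and 7 in E6, a ratio of 3.91 (95% exact interval 1.66 to 10.6). *Col17a1*, the hemidesmosome collagen of basal epithelium, had 0 counts in all WT libraries and 4, 1, 2 and 4 counts in E6. For *Col6a3* and *Col16a1* all WT libraries were above all E6 libraries, and for *Col17a1* all were below. None of these chains passed the filter, so the main fit did not test them. With no filter on low counts, *Col16a1* was DE in the averaged comparison, and *Col6a3* and *Col17a1* were not. DESeq2 called none of them in that comparison. Each was chosen for its counts, so the *Col16a1* call is given as a description.

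**Figure D5:**
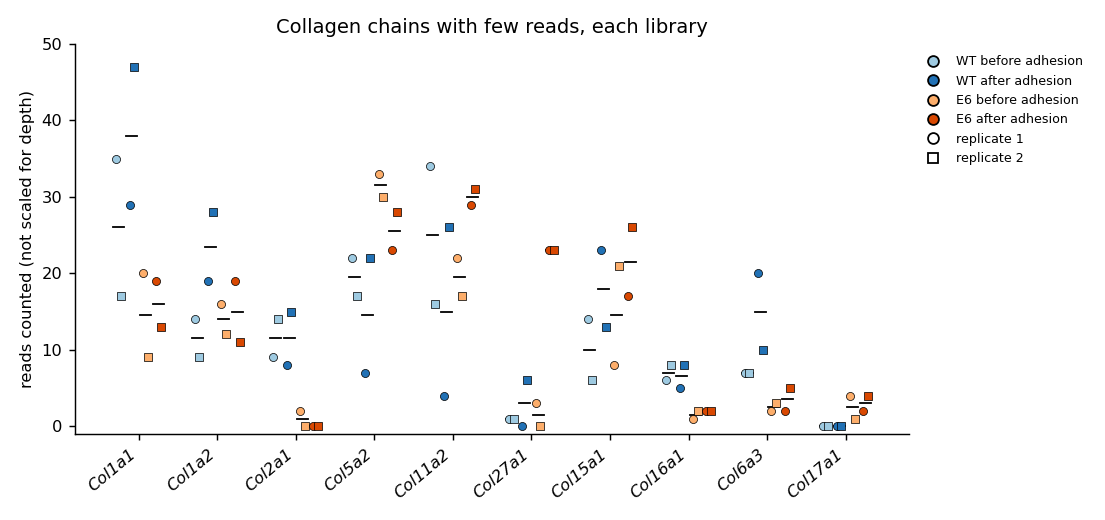
Reads counted for 10 collagen chains with few reads, not scaled for library depth, 1 point per library and a bar at the mean of the 2 libraries of a condition. *Col2a1* has 8 to 15 counts in WT and 0 to 2 in E6, and *Col27a1* has 23 counts in both E6 libraries after adhesion and at most 6 elsewhere.

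Other genes of collagen making and use were taken from lists and tested by the same limits in the averaged comparison of E6 with WT. Enzymes and chaperones of the endoplasmic reticulum modify and fold the chains. Of 15 tested of 21, 2 were higher and 1 lower in E6, against 5.22% and 6.13% of all tested genes. The median log2 FC over the list was 0.00. *Plod3*, a lysyl hydroxylase, had 52.6 ± 15.1 CPM in WT and 104 ± 2.57 CPM in E6 (log2 FC 0.97, edgeR FDR 0.0129). *P4ha2*, a subunit of prolyl 4-hydroxylase, had 5.07 ± 1.83 and 8.77 ± 2.17 CPM (0.81, FDR 0.0145), and *Leprel1*, a prolyl 3-hydroxylase, had 10.5 ± 1.65 and 4.32 ± 0.212 CPM (-1.30, FDR 0.00319). The *Leprel1* call held without any 1 library. The *Plod3* call was lost without any 1 of the 6 libraries other than those of WT after adhesion (log2 FC 0.95 to 0.98), and the *P4ha2* call without either library of WT before adhesion, without replicate 1 of E6 before adhesion or without either library of E6 after adhesion (0.67 to 0.87). *P4ha1*, the partner form of *P4ha2*, was DE with adhesion, at a log2 FC of -0.91 in E6 (FDR 0.0211) and of -0.74 averaged (FDR 0.0117). It went from 46.0 ± 1.47 to 25.4 ± 0.144 CPM (SD, n = 2) in E6, and both libraries after adhesion were below both before it. Its call in E6 was lost without any 1 of the 6 libraries other than those of WT after adhesion (-0.95 to -0.87).

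Of the genes that process and crosslink procollagen, 6 of 14 were tested. In E6, 1 was higher and 0 lower, against 5.22% and 6.13% of all tested genes. *Pcolce*, which enhances removal of the procollagen C-propeptide, had 19.6 ± 5.12 CPM in WT and 69.6 ± 1.35 CPM in E6 (log2 FC 1.81, edgeR FDR 0.000924), and no library of one cell type reached those of the other. *Tgm2*, a crosslinking transglutaminase also expressed in blood cells, had 1 and 6 counts in E6 before and 42 and 44 after adhesion. It passed the filter only because of the E6 libraries after adhesion, so a difference was built into its selection. Its DE call there (edgeR FDR 0.0376) is given as a description. That call was lost without any 1 of the 6 libraries other than those of WT after adhesion and with no filter on low counts (FDR 0.0523), while the *Pcolce* call held without any 1 library (1.67 to 2.05). The libraries with most *Tgm2* reads were also those with most *Lyz2*, *Emr1* and *Itgax* reads. By condition means in CPM, *Cd14* was also highest in E6 after adhesion, but *Csf1r* and *Cd68* were not. The part of myeloid cells in the *Tgm2* value was not tested.

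Of the matrix proteins that bind collagen, 7 of 20 were tested. In E6, 3 were higher and 0 lower, against 5.22% and 6.13% of all tested genes. *Fn1*, fibronectin, had 5520 ± 312 CPM in WT and 9400 ± 566 CPM in E6 (log2 FC 0.75, edgeR FDR 0.00238). *Pxdn*, the peroxidase that crosslinks type IV collagen, had 93.2 ± 9.44 and 168 ± 18.8 CPM (0.82, FDR 0.00120). *Hspg2*, the basement membrane proteoglycan perlecan, had 392 ± 63.8 and 596 ± 21.0 CPM (0.59, FDR 0.00640), and its log2 FC was 0.55 and under the FC limit without replicate 1 of WT after adhesion. It was also under that limit without replicate 1 of WT before adhesion (0.55, FDR 0.0521), without replicate 1 of E6 after adhesion (0.56) and with each library corrected for GC content (0.44). The calls of *Fn1* and *Pxdn* held without any 1 library.

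Of the collagen receptors, 6 of 11 were tested. In E6, 2 were higher and 1 lower, against 5.22% and 6.13% of all tested genes. *Itga2*, the α subunit of an integrin that binds collagen, had 1.96 ± 0.685 CPM in WT and 9.99 ± 2.35 CPM in E6 (log2 FC 2.35, edgeR FDR 0.000570). *Gpr56*, a receptor for type III collagen, had 7.38 ± 1.20 and 16.0 ± 3.12 CPM (1.09, FDR 0.0108). *Ddr2*, a receptor tyrosine kinase for fibrillar collagen, had 1.05 ± 0.310 and 0.197 ± 0.101 CPM (-2.37, FDR 0.0123). *Ddr2* passed the filter only through WT libraries. A difference was thus built into its selection, and its values and call are given as a description. The 3 differences were each without overlap between the cell types, while 31.3% of all tested genes did not overlap. The *Itga2* call held without any 1 library, the *Gpr56* call was lost without replicate 1 of WT before adhesion or of E6 after adhesion (0.99 and 1.03), and the *Ddr2* call was lost without any 1 library before adhesion or replicate 2 of E6 after adhesion (-2.45 to -2.01).

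Of the proteases that cleave collagen, 5 of 9 were tested and 0 were DE in either direction by edgeR and by DESeq2. *Mmp9* and *Mmp13* passed the filter only because of E6 after adhesion, so a difference was built into their selection. Their means were 1.10 and 1.56 CPM there and at most 0.149 and 0.523 CPM in other conditions. Their averaged log2 FCs were 1.25 (SE 1.42) and 1.42 (SE 0.93), too uncertain to show a difference or its absence. By edgeR, 11.3% of all tested genes were DE in the averaged comparison. In edgeR's test 2 of the 5 had an unadjusted p under 0.05, against 35.3% of all tested genes. The TGF-beta pathway is known to act on collagen genes. Its ligand *Tgfb1* had 29.4 ± 6.95 CPM in WT and 56.4 ± 7.32 CPM in E6 (log2 FC 0.91, edgeR FDR 0.00606), and the inhibitor *Smad7* had 77.2 ± 9.50 and 125 ± 15.6 CPM (0.66, FDR 0.00374). *Tgfbi*, a secreted protein that binds collagen, is also made by myeloid cells. It had 0 and 0 counts in E6 before and 23 and 22 after adhesion. The filter admitted it only through E6 after adhesion, so a difference was built into its selection. Its DE call there (edgeR FDR 0.0260) is given as a description. That call was lost without any 1 of the 4 E6 libraries and with the replicate block (FDR 0.0738), also with the GC correction added (FDR 0.0619). *Tgfbi* had more reads in the same libraries as *Lyz2*, *Emr1* and *Itgax*. By condition means in CPM, *Cd14* was also highest in E6 after adhesion, but *Csf1r* and *Cd68* were not. The part of myeloid cells in the *Tgfbi* value was not tested. The calls of *Tgfb1* and *Smad7* held without any 1 library, and *Smad7* was under the FC limit with each library corrected for GC content (0.54).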

How the data were processed

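The deposited values are raw counts of reads per gene, made by the authors with HTSeq from paired-end reads mapped by STAR to mm10. The submitters' processing notes give STAR 2.5.0a. The annotation and strand setting are not given in the sources used here, and the labels and the paper name different TruSeq Stranded kits. Reads on no gene (21.2% to 33.3%) were left out, and 18 symbols turned into dates in 1 library were restored from the gene order.

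All genes were fitted in edgeR 4.0.16 (R 4.3.3), with filterByExpr by condition, TMM scaling and a quasi-likelihood fit with 1 mean per condition over 8 libraries. The 7 contrasts used an FDR under 0.05 over 11672 genes and an FC of at least 1.5. SEs were derived from the test. The scripts were tested on simulated data. Exact (Clopper-Pearson) 95% intervals were computed on pooled counts. Positions, longest protein-coding transcripts and GC content came from GENCODE vM21 (GRCm38), and promoters from RefSeq (GRCm38.p6, 35 of 44 members).

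Members DE in any contrast, and the highest per length among those tested in each class, are given in every library. Of the lists, the DE genes are named, at most the 4 largest per list. The counts of the TGF-beta list are not reported here. Members and lists were chosen with earlier results of these data known. Alternatives were RLE size factors, no filter, no FC limit, the replicate numbers as a block, a GC correction (lowess span 0.3), a fit of the compared libraries alone, the omission of each library, TMM-scaled levels and DESeq2 1.42.0.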

Additional observations from a re-analysis of the deposited data

Results flagged for a closer look

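For *Col12a1* the libraries of the cell types lay on opposite sides with adhesion. Both WT libraries after adhesion (256 and 286 CPM) were below both before it (286 and 286 CPM), while both E6 libraries after adhesion (167 and 163 CPM) were above both before it (160 and 154 CPM). Replicate 2 of WT after adhesion was within 1 CPM of the WT libraries before it, so the gap in WT rests on replicate 1, the library that stood apart. Neither adhesion effect passed edgeR's quasi-likelihood test, with log2 FCs of -0.05 (SE 0.10, FDR 0.825) in WT and 0.03 (SE 0.10, FDR 1) in E6. The difference between the effects was 0.0762 on the log2 scale (SE 0.14) and did not pass it (FDR 0.988).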

How the results depend on the processing

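In the averaged comparison of E6 with WT the 5 DE chains became 3 to 10 when single libraries were left out, and the calls of *Col12a1*, *Col4a3* and *Col7a1* held in all 14 alternatives. Before adhesion the 2 DE chains became 4 with the GC correction, 4 with it and the block, 4 with only the 4 libraries compared, 4 with DESeq2 and 0 to 5 when single libraries were left out. After adhesion the 5 became 0 with only the 4 libraries compared and 0 to 12 when single libraries were left out. The 0 chains DE with adhesion became 0 to 2 averaged, 0 to 8 in WT and 0 to 1 in E6 when single libraries were left out, and 1 in E6 with only the 4 libraries compared. The 0 for the difference of the adhesion effects became 0 to 7. A condition left with 1 library was assumed to vary like the others, and when replicate 2 of WT after adhesion was left out the library with the steep GC slope stood alone. The cause of the other changes was not tested. The calls over all tested genes also moved. Before adhesion 585 genes were DE in the main fit, 931 with the GC correction and 799 with it and the block. With only the 4 libraries compared 1457 were DE, and 806 with DESeq2. After adhesion 1040 genes were DE in the main fit and 0 with only the 4 libraries compared. With adhesion in E6 these numbers were 234 and 537. Among 502 log2 FCs of single genes over 35 results, 397 kept their call, 96 lost it, 9 gained it and 0 changed sign.

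With the replicate block the count was 1 before and 3 after adhesion and 6 averaged, and 0 in each adhesion comparison. For the comparisons of E6 with WT, 383, 721 and 1274 of all tested genes were then DE, against 585, 1040 and 1324 in the main fit. The pairing by number was not borne out. For each condition the log2 CPM difference of replicate 1 from replicate 2 was taken over 9768 genes. Between conditions, these differences had correlations of -0.08 to 0.22.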
